A study of Mus musculus with 9 samples.

Results

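The transcripts described here are those of 10 genes of the T lineage, Tcf7, Trbc1, Trbc2, Rora, Nkg7, Cd3d, Cd3e, Cd3g, Lck and Gata3, in RNA-seq of mouse bone marrow megakaryocyte–erythrocyte progenitors (MEPs). They are 10 of the 35275 genes in the table of read counts and were found by matching gene identifiers to symbols. The members were selected on earlier results of these same counts, so their levels and their differences are given as a description, without a p-value. The question was which transcripts of the T lineage appear in MEPs without those of the CD3 genes.

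MEPs (Lin-ckit+CD34-FcγRII/IIIlo) came from young adult, sex-matched wild-type C57BL/6 mice and were sorted by binding of HS3A8, a single-chain antibody fragment (scFv) that recognizes a modification pattern of heparan sulfate. HS3A8-high MEPs bound HS3A8 above the median and HS3A8-low MEPs below it. MPB49 control MEPs went through a mock sort with MPB49, an scFv with no known epitope on heparan sulfate, and stand for total MEPs. Each group has 3 libraries, prepared from 25000 cells per condition, and all 3 groups passed the same gate, which removed cells stained for CD3, CD4, CD8 and markers of B cells, granulocytes, monocytes and late erythroid cells. No group carried a transgene or a treatment. The sources used here do not say whether the high and low fractions of the same replicate number came from the same mouse.

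The T cell receptor is a pair of variable chains, most often alpha and beta, held at the surface by the CD3 chains. Cd3d, Cd3e and Cd3g encode 3 of these chains, which carry the signal into the cell, and Lck encodes the Src-family kinase that phosphorylates them. Trbc1 and Trbc2 encode the alternative constant regions of the beta chain. Each lies downstream of its own diversity (D) and joining (J) segments, and the D1–J1–C1 cluster can be transcribed before any segment is joined, as a germline transcript. Tcf7 encodes TCF-1, a transcription factor of T cell commitment and of innate lymphoid progenitors. Gata3 and Rora encode transcription factors of T cells and innate lymphoid cells, and Nkg7 a membrane protein of cytotoxic granules of natural killer (NK) cells and cytotoxic T cells.

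The constant genes of the beta locus are described first, because their likeness sets how far its reads can be assigned. Trbc1 (chr6:41538218-41539881) and Trbc2 (chr6:41546730-41548352) lie on the plus strand of GRCm38, and their first exons of 375 bases were 99.7% identical. Of the windows of 100 bases in this exon (GENCODE release M21), 63.8% were identical between the genes. The program and settings that divided such reads between Trbc1 and Trbc2 are only partly stated, so the split between them is uncertain.

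The sequences of the D1 and J1 segments, from the same release, are shown because reads were found at each of them. They lie between chr6:41533201 and chr6:41535687 on the same strand, upstream of Trbc1. Capitals mark the first stretch that reads TTT or TTC, then GGN, any 3 bases and GGN, the codons of the phenylalanine-glycine-any-glycine motif by which a joined J segment is recognized. It was sought on the coding strand only and found in 5 of the 7 J1 segments, not in the letters of Trbj1-6 and Trbj1-7.
Trbd1: gggacagggggc
Trbj1-1: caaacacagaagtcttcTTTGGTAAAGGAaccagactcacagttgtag
Trbj1-2: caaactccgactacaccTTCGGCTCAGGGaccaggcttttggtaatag
Trbj1-3: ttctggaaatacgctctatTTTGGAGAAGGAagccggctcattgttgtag
Trbj1-4: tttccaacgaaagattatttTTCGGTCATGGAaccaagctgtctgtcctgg
Trbj1-5: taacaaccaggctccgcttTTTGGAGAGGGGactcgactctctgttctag
Trbj1-6: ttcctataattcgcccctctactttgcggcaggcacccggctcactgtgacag
Trbj1-7: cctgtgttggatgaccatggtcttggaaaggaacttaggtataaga

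Sequencing depth and cell type were checked in the whole series first. Library totals ran from 11781637 to 15850037 counts, so a count of 0 allows up to 3 counts, or 0.177 to 0.270 CPM (counts scaled to a common library size, with TMM factors over all 9 libraries). The label MEP was checked against Kit, the receptor used in the gate (4550 to 12688 counts per library), and the erythroid factor Klf1 (5727 to 14496 counts), both of which were abundant in every library. Of the markers the gate sorts as negative or low, Cd34 had 480, 876 and 877 counts in HS3A8-low, 163, 663 and 548 in the controls and 52, 11 and 166 in HS3A8-high, so its RNA was present in libraries of cells labelled CD34-. Fcgr3, an Fc receptor gene, had 522 and 269 counts in replicate 3 of HS3A8-low and HS3A8-high and 2 to 32 in the other 7 libraries. Replicate 3 of both HS3A8 fractions stood apart: the 15 granulocyte and monocyte genes listed summed to 1965 CPM in HS3A8-high replicate 3 and 4994 CPM in HS3A8-low replicate 3, against 10.8 to 265 CPM in the other 7 libraries. MPB49 control replicate 1 differed from the other 2 controls in its counts (chi-square per degree of freedom of 196 and 150, against 9.61 between those 2). Differences of the 10 genes between the fractions are also given without replicate 3 of both, and those against the control without control replicate 1 where that moved the log2 value by more than 1.5 times.

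Reads of the CD3 genes were absent from 2 of the 3 HS3A8-high libraries. Cd3d, Cd3e and Cd3g each had 0 counts in HS3A8-high replicates 1 and 2, which allows up to 0.191 and 0.229 CPM. In replicate 3 they had 15, 15 and 7 counts. The CD3 reads of the HS3A8-high group thus came from 1 library, the one with high granulocyte and monocyte genes.

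In both other groups the CD3 genes were detected in every library at low counts. The 3 genes are neighbours on chromosome 9, Cd3g (chr9:44969572-44980431, minus strand), Cd3d (chr9:44981786-44987339, plus strand) and Cd3e (chr9:44998740-45009627, minus strand), in GRCm38. Cd3d had 12, 15 and 50 counts in HS3A8-low and 9, 3 and 4 in the controls. Its level was 1.98 ± 1.91 CPM (mean ± SD, n = 3) in HS3A8-low, 0.433 ± 0.332 CPM in the control and 0.331 ± 0.573 CPM in HS3A8-high, and HS3A8-low overlapped with both. The HS3A8-low mean of Cd3d was carried by replicate 3, at 4.17 CPM against 0.707 and 1.06 CPM.
Cd3e had 16, 24 and 14 counts in HS3A8-low and 2, 5 and 2 in the control, or 1.27 ± 0.387 and 0.216 ± 0.0919 CPM (mean ± SD, n = 3). HS3A8-low lay above the control in every library, whereas it overlapped with HS3A8-high, where replicate 3 reached 0.992 CPM. Cd3g had 31, 13 and 12 counts in HS3A8-low and 16, 6 and 4 in the control, or 1.25 ± 0.502 and 0.707 ± 0.638 CPM. For Cd3g every HS3A8-low library lay above every HS3A8-high library, and HS3A8-low overlapped with the control.

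The fits gave wide errors for the CD3 genes, as their counts were few. Between HS3A8-high and HS3A8-low the log2 fold change was -2.55 ± 1.38 (SE) for Cd3d, -1.92 ± 1.24 for Cd3e and -2.97 ± 1.13 for Cd3g. With replicate 3 of both fractions left out, HS3A8-low was at least 8.34-fold higher for Cd3d, 12.4-fold for Cd3e and 13.6-fold for Cd3g, computed against the 3 counts that a group at 0 allows over its 2 libraries. Replicate 3, left out after the data were seen, held all CD3 reads of HS3A8-high, so that choice itself puts the group at 0. The bounds also leave out the counting error of HS3A8-low. HS3A8-low differed from the control by 2.18 ± 0.92 on the log2 scale for Cd3d, 2.47 ± 0.62 for Cd3e and 0.82 ± 0.75 for Cd3g. The library set mattered, as Cd3d was at 0.77 without replicate 3 of both groups and Cd3g at 1.86 without control replicate 1. Between HS3A8-high and the control none of the 3 CD3 genes passed the filter on low counts.

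Members other than CD3 were read in the HS3A8-high libraries without CD3. In HS3A8-high replicate 1, 7 of the 10 members had a count: Nkg7 had 119, Lck 33, Gata3 25, Tcf7 17, Trbc1 and Rora 5 each, and Trbc2 1. In replicate 2, 4 members had one: Nkg7 had 50, Lck 5, Tcf7 4 and Trbc1 2. Nkg7, Lck, Tcf7 and Trbc1 were therefore the members read in every library. A count of 0 allows 3 counts, so that the 5 and 2 reads of Trbc1 in these libraries are hardly apart from the 0 of each CD3 gene, whereas the 119 and 50 reads of Nkg7 are.

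**Figure D1:**
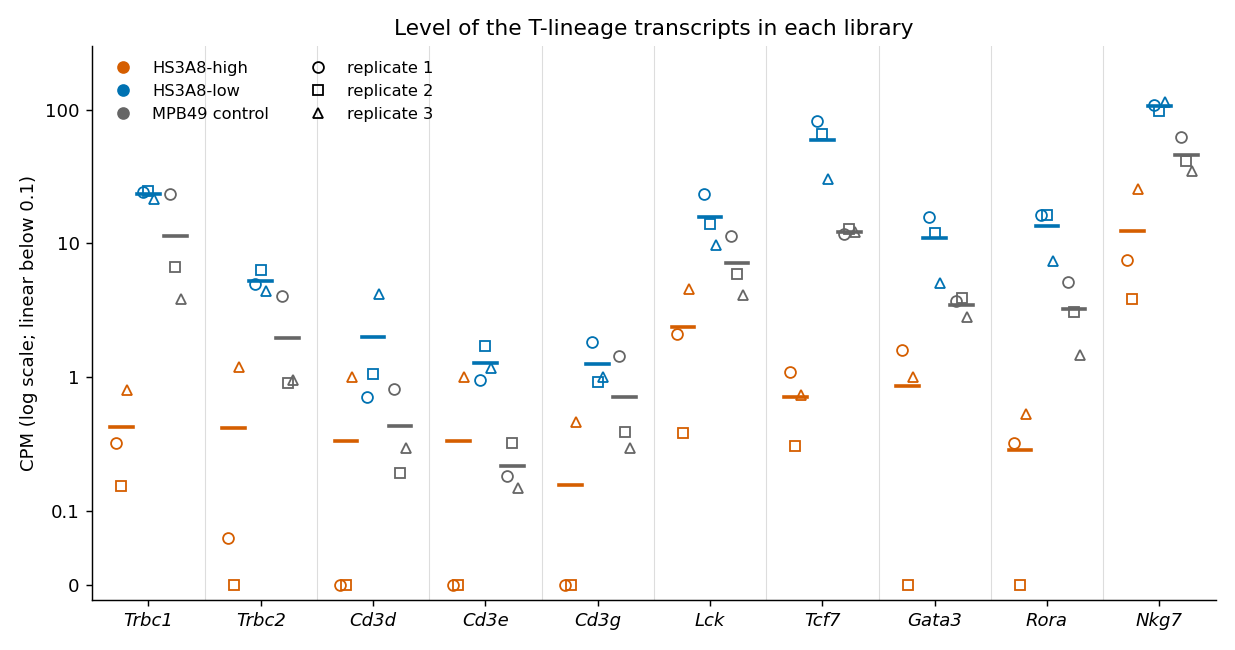
Level of the 10 T-lineage transcripts in each of the 9 libraries, in CPM on a log axis that is linear below 0.1 (points, shape by replicate number; bars, mean of the group, n = 3). The CD3 genes lie at 0 in HS3A8-high replicates 1 and 2, and Tcf7 separates the 3 groups, from 0.305 to 1.08 CPM in HS3A8-high, 11.7 to 12.8 CPM in the control and 30.5 to 81.9 CPM in HS3A8-low.

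Tcf7 was the member with the largest fitted difference between the fractions over all 6 libraries. The gene (chr11:52252371-52283014, minus strand) had 1389, 932 and 365 counts in HS3A8-low, 130, 199 and 164 in the controls and 17, 4 and 11 in HS3A8-high. Its level was 59.4 ± 26.3 CPM in HS3A8-low, 12.2 ± 0.523 CPM in the control and 0.705 ± 0.388 CPM in HS3A8-high (mean ± SD, n = 3 each). No library of any group overlapped with another group, although HS3A8-low replicate 3 held less than HS3A8-low replicates 1 and 2.
The log2 fold change of Tcf7 was -6.39 ± 0.55 (SE) between HS3A8-high and HS3A8-low, which is 83.6-fold. Without replicate 3 of both fractions it was -6.68. HS3A8-low exceeded the control by 2.27 ± 0.35 on the log2 scale, and HS3A8-high differed from the control by -4.10 ± 0.45. These comparisons share groups, so that they are not independent of each other.

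The 2 other transcription factors had the same order of groups as Tcf7. Rora (chr9:68653786-69388246, plus strand) had 278, 232 and 89 counts in HS3A8-low, 57, 48 and 20 in the control and 5, 0 and 8 in HS3A8-high. These are 13.4 ± 5.18, 3.23 ± 1.84 and 0.282 ± 0.266 CPM, with no overlap between any of the groups. The log2 fold change of Rora between HS3A8-high and HS3A8-low was -5.52 ± 0.80, and -6.53 without replicate 3 of both.
Gata3 (chr2:9857078-9890034, minus strand) had 265, 169 and 61 counts in HS3A8-low, 41, 61 and 38 in the control and 25, 0 and 15 in HS3A8-high. These are 10.9 ± 5.34, 3.47 ± 0.590 and 0.860 ± 0.803 CPM, again without overlap, and the log2 fold change between the fractions was -3.66 ± 0.97, and -4.06 without replicate 3 of both. Of the exon bases of Gata3, 5.83% are also exons of other genes, and whether counting used the strand is not given in the sources used here. For Rora that share was 0.627%.

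Lck, the kinase of the receptor, was higher in HS3A8-low than in HS3A8-high but less clearly so against the control. The gene (chr4:129548344-129573641, minus strand) had 400, 198 and 116 counts in HS3A8-low, 126, 92 and 56 in the control and 33, 5 and 69 in HS3A8-high. Its level was 15.8 ± 7.11 CPM in HS3A8-low, 7.12 ± 3.77 CPM in the control and 2.35 ± 2.10 CPM in HS3A8-high. HS3A8-low replicate 3 (9.68 CPM) fell within the range of the control, and so did HS3A8-high replicate 3 (4.56 CPM), so that only the 2 fractions were apart. The log2 fold change of Lck between them was -2.77 ± 0.77, and -3.89 without replicate 3 of both.

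Nkg7 was the most abundant member in every group. The gene (chr7:43437073-43438249, plus strand) had 1827, 1383 and 1367 counts in HS3A8-low, 692, 645 and 469 in the control and 119, 50 and 387 in HS3A8-high. The levels were 107 ± 8.19, 46.1 ± 14.5 and 12.3 ± 11.6 CPM, and no group overlapped with another. The log2 fold change was -3.14 ± 0.63 between HS3A8-high and HS3A8-low and -4.18 without replicate 3 of both, since HS3A8-high replicate 3 held 25.6 CPM against 7.57 and 3.82 CPM.

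The constant regions of the beta chain were read mostly as Trbc1. Trbc1 had 412, 349 and 259 counts in HS3A8-low, 261, 103 and 52 in the control and 5, 2 and 12 in HS3A8-high. In HS3A8-low its level hardly varied, at 23.5 ± 1.67 CPM. In the control it ranged from 3.83 to 23.5 CPM, and replicate 1 of the control was at the level of HS3A8-low.
HS3A8-high held 0.421 ± 0.333 CPM of Trbc1, below every other library, and the log2 fold change against HS3A8-low was -5.79 ± 0.49, or -6.63 without replicate 3 of both. Against the control HS3A8-low differed by 1.02 ± 0.63 on the log2 scale. With control replicate 1 left out, this value was the highest of those with 1 library left out, at 2.17.
Trbc2 had 84, 90 and 53 counts in HS3A8-low, 45, 14 and 13 in the control and 1, 0 and 18 in HS3A8-high. Its level was 5.25 ± 1.004, 1.97 ± 1.81 and 0.418 ± 0.670 CPM. In HS3A8-high, 18 of the 19 counts of Trbc2 were in replicate 3, the library that also held the CD3 reads. Between the fractions the log2 fold change was -3.64 ± 1.09. Without replicate 3 of both, 1 count in HS3A8-high stood against 174 in HS3A8-low, a ratio of 161 with an exact 95% counting interval of 28.6 to 6405. Against the control HS3A8-low differed by 1.39 ± 0.66 on the log2 scale, and by 2.49 without control replicate 1.

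Trbc1 made up a steady share of the reads at both constant regions in 2 of the groups. It was 83.1%, 79.5% and 83.0% in HS3A8-low and 85.3%, 88.0% and 80.0% in the control, and 40.0% in HS3A8-high replicate 3, on 30 counts in that library. The low share in HS3A8-high replicate 3 rests on 12 counts of Trbc1 and 18 of Trbc2.

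The beta locus as a whole was examined after these values had been seen, over all 40 of its segments in the table. In HS3A8-low the 7 J1 segments held 117, 193 and 129 counts and Trbd1, of 12 bases, held 19, 19 and 6. The 7 J2 segments held 2, 6 and 1 and Trbd2 held 1, 0 and 1. Every J1 segment printed above was read in HS3A8-low, from 24 counts over the group at Trbj1-6 to 196 at Trbj1-1, and all were read in the control too. Reads at D and J segments thus lay almost wholly in the first cluster, that of Trbc1.
In the control the J1 segments held 91, 38 and 48 counts and Trbd1 24, 5 and 6, whereas the J2 segments held 2, 1 and 4 and Trbd2 none. In HS3A8-high the J1 segments held 0, 1 and 4 counts and Trbd1 0, 0 and 2. In CPM the J1 segments were at 10.4 ± 3.39 in HS3A8-low, 4.72 ± 3.06 in the control and 0.114 ± 0.136 in HS3A8-high. The J1 segments of HS3A8-high lay below those of both other groups in every library.
The 22 V segments held 371 counts in HS3A8-low, 153 in the control and 55 in HS3A8-high, and 15 of the 22 had a count in any library. Of the 579 V counts in all, 69.6% were at Trbv13-2 and 95 were at Trbv12-2. Trbv13-2 had 14 and 9 counts in HS3A8-high replicates 1 and 2, where the J1 segments had 0 and 1. The V segments were thus read in libraries in which D1, J1 and CD3 reads were at or near 0.

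**Figure D2:**
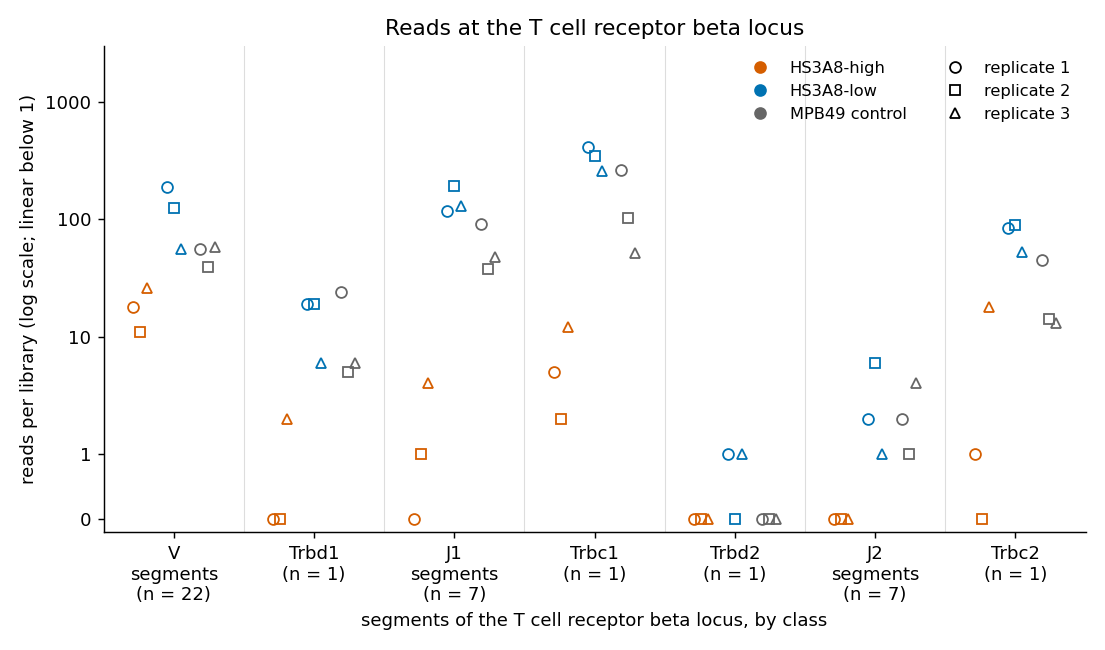
Reads per library at the segments of the T cell receptor beta locus, by class (V, D, J and constant segments of the first and second cluster; n, number of segments summed), on a log axis that is linear below 1. The J1 segments and Trbc1 hold 38 to 412 reads in the HS3A8-low and control libraries, while the J2 segments hold 1 to 6.

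In HS3A8-low and the control the other receptor loci were read far less than the beta locus. Trac, the constant region of the alpha chain and a defining gene of alpha-beta T cells, had 2, 5 and 4 counts in HS3A8-low, 0, 4 and 1 in the control and 0 in all 3 HS3A8-high libraries. All 163 alpha segments together held 26, 21 and 26 counts in HS3A8-low, against 825, 782 and 505 at the beta locus. In HS3A8-high the alpha segments held 7, 11 and 18 counts and the beta locus 24, 14 and 62, so that they were close to each other in replicate 2. The 9 delta segments held 21, 29 and 21 counts in HS3A8-low and 14, 11 and 19 in HS3A8-high. The 2 gamma segments held 7, 8 and 8 counts in HS3A8-low, 0, 1 and 1 in the control and 0 in each HS3A8-high library. The constant genes Trdc, Trgc1, Trgc2 and Trgc4 were not among the genes counted, so they could not be read. Ptcra, the pre-T alpha chain that pairs with a new beta chain in the thymus, had 2 counts in HS3A8-high replicate 1 and 0 in the other 8 libraries.
Defining markers of mature T cells were near 0 as well. Cd4 had at most 1 count in any library and Cd8b1 0 in all 9. Cd8a had 9 counts in control replicate 1, 3 in HS3A8-low replicate 2, 1 in HS3A8-high replicate 3 and 0 in the other 6 libraries. The HS3A8-low and control libraries therefore held receptor beta and lymphoid transcription factor reads with few or no reads of the alpha constant region and the co-receptors. The CD3 genes were not set apart from Trac in this way. Per kilobase of exon in HS3A8-low, Trac was at 0.126, 0.378 and 0.357 CPM and overlapped with Cd3e, at 0.231, 0.416 and 0.286 CPM.

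CD3 reads were few relative to Tcf7 and Trbc1 wherever these were abundant. In HS3A8-low the 3 CD3 genes summed to 59, 52 and 76 counts, and Trbc1 had 6.98, 6.71 and 3.41 reads for each CD3 read. In the control that ratio was 9.67, 7.36 and 5.20, on 27, 14 and 10 CD3 reads. HS3A8-high replicate 3 had 0.324 reads of Trbc1 for each of its 37 CD3 reads, below all 6 libraries of the other groups.
Tcf7 gave the same picture with more spread. There were 23.5, 17.9 and 4.80 reads of Tcf7 for each CD3 read in HS3A8-low, 4.81, 14.2 and 16.4 in the control and 0.297 in HS3A8-high replicate 3. The proportion between Tcf7, Trbc1 and CD3 was thus not constant over the libraries, and within HS3A8-low it was lowest in replicate 3, the library with high granulocyte and monocyte genes.

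Compared per kilobase of exon, the members spanned a wide range within HS3A8-low. Nkg7 led with 117 ± 8.97 CPM per kb, followed by Trbc1 with 31.4 ± 2.23 and Tcf7 with 22.6 ± 10.02, and these last 2 overlapped between libraries. Trbc2 (7.58 ± 1.45), Lck (5.38 ± 2.43), Gata3 (2.74 ± 1.34), Cd3d (1.09 ± 1.05) and Rora (1.03 ± 0.396) each overlapped with the next. Cd3g, at 0.382 ± 0.154, lay below Rora in every library and overlapped with Cd3e, at 0.311 ± 0.0949.
In the control the order was the same down to Gata3 (0.872 ± 0.148 CPM per kb), followed by Rora (0.247 ± 0.141), Cd3d (0.238 ± 0.183), Cd3g (0.216 ± 0.195) and Cd3e (0.0529 ± 0.0225). In HS3A8-high Nkg7 held 13.5 ± 12.7 CPM per kb and was above Lck (0.802 ± 0.718), and all neighbours below Lck overlapped.

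**Figure D3:**
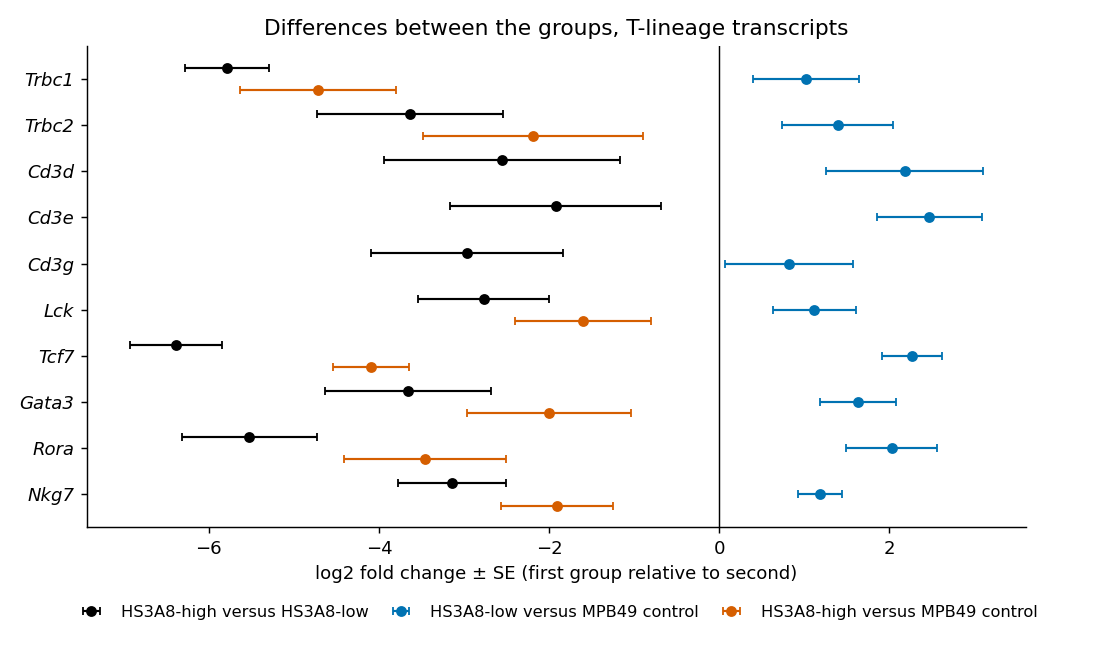
Log2 fold change of the 10 members in the 3 comparisons (points, fitted value; bars, ± SE; 3 libraries per group; the CD3 genes have no value for HS3A8-high versus the control, where they did not pass the filter). Tcf7, Trbc1 and Rora differ most between HS3A8-high and HS3A8-low, at -6.39, -5.79 and -5.52.

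Read over the whole list, the libraries of HS3A8-high lay below those of HS3A8-low without overlap for 8 of the 10 members, all but Cd3d and Cd3e, where 14.3% of the 11791 genes tested did so. HS3A8-low lay above the control without overlap for 6 members, Tcf7, Trbc2, Rora, Nkg7, Cd3e and Gata3 (8.11% of 11878 genes). HS3A8-high lay below the control without overlap for Tcf7, Trbc1, Rora, Nkg7 and Gata3 (6.85% of 11486 genes). As these contrasts chose the members, nothing is read from those counts. In bulk libraries, fewer cells of a type and less RNA per cell cannot be told apart.

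Libraries of 1 fraction also differed among themselves in these transcripts. Within HS3A8-low, Tcf7, Gata3 and Lck were highest in replicate 1 and lowest in replicate 3, with Tcf7 at 81.9, 65.9 and 30.5 CPM. Rora was at 16.4, 16.4 and 7.43 CPM. Cd3d, at 0.707, 1.06 and 4.17 CPM, was highest in replicate 3, as was the sum of the NK genes described below.
The same replicate 3 was marked in HS3A8-high. There Trbc1, Trbc2, Nkg7, Lck, Rora and the 3 CD3 genes were highest in replicate 3, whereas Tcf7 (1.08, 0.305 and 0.727 CPM) and Gata3 (1.59, 0 and 0.992 CPM) were highest in replicate 1. In the control, Trbc1, Trbc2, Nkg7, Lck, Rora, Cd3d and Cd3g were highest in replicate 1, while Tcf7 stayed between 11.7 and 12.8 CPM. Cd3e, Tcf7 and Gata3 were highest in control replicate 2. Tcf7 and Gata3 were thus highest in another library than Trbc1, Trbc2, Cd3d and Cd3g in both groups.

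Beside the members, 41 further T-lineage genes were listed, of which 37 were in the table. They were chosen with earlier results of these data known, so their calls are no independent check of the members. Between HS3A8-high and HS3A8-low, 20 of them were tested, 6 were lower in HS3A8-high at an adjusted p under 0.05 (edgeR quasi-likelihood test) and 0 higher, where 3.21% of all 11791 genes were lower and 0.611% higher. Their median log2 fold change was -2.60, against -0.03 over all genes. Among the 6 were Lat and Lcp2, which act next to Lck in receptor signalling, the costimulatory receptor Cd27, and the nuclear factors Tox and Satb1. These are their roles in T cells, and which cells gave their reads here was not tested. The paper labels its common myeloid progenitors CD27+, so Cd27 is not confined to T cells. Genes of the megakaryocyte and stem cell lists were called lower too, as given below, so such calls were not particular to the T-lineage list. With the replicate number as a block, 10 were lower, with Fyn, Cd7, Il7r and Bcl11b added. That fit called 1367 of all 11791 genes in either direction. Without replicate 3 of both fractions 14 of 23 were lower, and the closing section gives the number of all genes called then. Of the lists given below, 8 of 10 NK and cytotoxic, 6 of 8 innate lymphoid and 6 of 8 megakaryocyte genes were lower in that setting too. For granulocyte and monocyte genes it was 5 of 9, for stem and multipotent progenitor genes 3 of 9 and for B lineage genes 1 of 4. Without HS3A8-low replicate 2 no gene of the T-lineage list was called, nor was any gene of the whole table.
Lat, the scaffold that gathers signalling proteins at the receptor, had 398, 342 and 240 counts in HS3A8-low, 175, 135 and 129 in the control and 46, 41 and 40 in HS3A8-high. It fell by 2.99 ± 0.20 on the log2 scale from HS3A8-low to HS3A8-high (adjusted p = 0.00712, edgeR), the smallest error of the 6. No Lat count of a HS3A8-high library reached that of any other library.
Lcp2, the adaptor SLP-76, changed by -2.41 ± 0.42 (adjusted p = 0.0329, edgeR) from 891, 581 and 516 counts in HS3A8-low to 122, 55 and 216 in HS3A8-high. Cd27 changed by -3.10 ± 0.59 (adjusted p = 0.0391, edgeR) and had 357, 436 and 283 counts in HS3A8-low against 28, 16 and 90. Tox had 209, 152 and 62 counts in HS3A8-low and 10, 0 and 0 in HS3A8-high (-5.39 ± 1.10, adjusted p = 0.0481, edgeR), and Satb1 changed by -2.79 ± 0.31 (adjusted p = 0.0126, edgeR). Tox, like Tcf7, was higher in HS3A8-high replicate 1 than in replicate 3, and Lcp2 and Cd27 were higher in replicate 3.
Of 9 signalling genes, 6 were tested and 3 called. Of 8 transcription factors, 7 were tested and 2 called, and Bcl11b, which fixes T cell identity, had 173, 55 and 34 counts in HS3A8-low and 6, 0 and 0 in HS3A8-high (adjusted p = 0.0539 without and 0.0116 with the block, edgeR). Runx3 (56.7 CPM in HS3A8-low, 51.5 in HS3A8-high) and Zbtb7b (7.81 and 7.69 CPM) had log2 fold changes of -0.18 ± 0.21 and -0.06 ± 0.31. Dntt, the terminal transferase of receptor rearrangement, was at 36.5 CPM in HS3A8-low and 15.4 CPM in HS3A8-high (adjusted p = 0.242, edgeR), while Rag1 and Rag2 had at most 24 counts in any library.

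Of the 37 genes, 15 had a count in both HS3A8-high libraries without CD3, 6 in 1 of the 2 and 16 in neither. Among those read in both were Fyn (532 and 404 counts), Runx3 (935 and 573), Lcp2 (122 and 55), Lat (46 and 41), Satb1 (38 and 21) and Cd27 (28 and 16). Among those in neither were Zap70, the kinase that binds phosphorylated CD3, Themis, Skap1, Cd2, Cd5, Cd28 and Thy1. Of the 16 genes, 9 had a count in HS3A8-high replicate 3, up to 14 for Cd2. Zap70 and Themis were at 0 in all 3 HS3A8-high libraries, whereas Zap70 had 19, 9 and 5 counts and Themis 29, 22 and 5 in HS3A8-low.

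Against the MPB49 control the edgeR test of each pair of groups called none of these genes. Between HS3A8-low and the control 24 were tested, and 0 of them and 0 of all 11878 genes (0%) were called higher or lower by edgeR, with 673 genes at an unadjusted p under 0.05 and 93 called by DESeq2, 1 of them on the list. The median log2 fold change of the 24 was 1.29, against 0.00 over all genes, and 13 lay above the control without overlap, where 8.11% of all genes did. Between HS3A8-high and the control 14 were tested, with a median of -1.39, and edgeR called 0 of them and 2 of 11486 genes, both lower (0.0174%), where 562 genes had an unadjusted p under 0.05 and DESeq2 called 143, with 4 on the list.

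Markers of other blood cells were read beside the members. Of 14 NK and cytotoxic genes, 11 were tested between the fractions and 1, Eomes, was lower in HS3A8-high, and 5 were with the replicate number as a block (Klrd1, Klrk1, Gzma and Ccl5 added). For this list and those that follow, the background is the 3.21% of all genes that were lower without the block, and 1367 of 11791 genes called in either direction with it. Eomes, a transcription factor of NK cells and cytotoxic T cells, had 20, 20 and 58 counts in HS3A8-low and 0 in all HS3A8-high libraries, at least 36.3-fold higher in HS3A8-low against 3 counts over the group. It passed the filter on low counts through HS3A8-low alone, which bears on its call. The 14 genes summed to 48.6, 42.0 and 77.9 CPM in HS3A8-low, to 35.2, 8.14 and 7.51 CPM in the control, and to 0.318, 0.229 and 19.4 CPM in HS3A8-high. Klrd1, an NK receptor chain, had 87, 7 and 6 counts in the control and 1, 0 and 19 in HS3A8-high. The libraries highest for NK genes within each group were those highest for the summed CD3 genes, and the part of NK-type transcripts in the CD3, Trbc2 and Nkg7 values was not tested.
Of 13 innate lymphoid genes, 7 were tested between the fractions and 1, Id2, a factor all innate lymphoid cells require, was lower in HS3A8-high (log2 fold change -3.33 ± 0.51, adjusted p = 0.0257, edgeR), and Zbtb16 and Pdcd1 were too with the block. Zbtb16, the factor PLZF of innate lymphoid precursors, had 264, 103 and 25 counts in HS3A8-low and 10, 9 and 15 in HS3A8-high (adjusted p = 0.0546, edgeR). Pdcd1 had 170, 183 and 153 counts in HS3A8-low and 0, 0 and 20 in HS3A8-high (adjusted p = 0.0817, edgeR). Il5, Il13 and Areg, products of mature group 2 innate lymphoid cells, had 0 counts in all 9 libraries. Il1rl1 had 761 to 1566 counts per library, with no call, and was the only tested gene of this list that went the other way. It was at 83.3, 89.5 and 97.5 CPM in HS3A8-high and 83.0, 73.3 and 74.0 CPM in HS3A8-low, without overlap. Zbtb16, like Tcf7, was highest in replicate 1 of HS3A8-low and lowest in replicate 3.

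The remaining lists give the setting. Of 10 B lineage genes, 4 were tested and 0 called between the fractions, 2 with the block, and Pax5 and Ms4a1 were at 0 in all 9 libraries. Of 15 granulocyte and monocyte genes, 11 were tested and 0 called, 6 with the block. These 15 genes summed to 19.5, 10.8 and 1965 CPM in HS3A8-high, 123, 265 and 4994 CPM in HS3A8-low and 98.9, 204 and 157 CPM in the control. The level of the granulocyte and monocyte genes was thus highest in the HS3A8-low library with the least Tcf7, and its part in the values of the members was not tested.
Of 9 basophil and mast cell genes, 3 were tested and 0 called, 1 with the block, and Prss34 of basophils had 601 and 889 counts in replicate 3 of HS3A8-high and HS3A8-low, 97 in control replicate 1 and at most 1 elsewhere. Of 10 stem and multipotent progenitor genes, 9 were tested and 2, Hlf and Meis1, were lower in HS3A8-high, 5 with the block. Meis1 had 1110, 553 and 316 counts in HS3A8-low and 78, 64 and 53 in HS3A8-high (-3.33 ± 0.37, adjusted p = 0.0127, edgeR). Megakaryocyte genes were lower in HS3A8-high for 4 of 8 (Pf4, Itga2b, Fli1 and Treml1) and for 6 with the block (Gp9 and Itgb3 added), and of 8 erythroid genes Car1 was higher (log2 fold change 0.36 ± 0.05, adjusted p = 0.0257, edgeR), 4 with the block. T-lineage genes were therefore not alone in being lower in HS3A8-high.

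**Figure D4:**
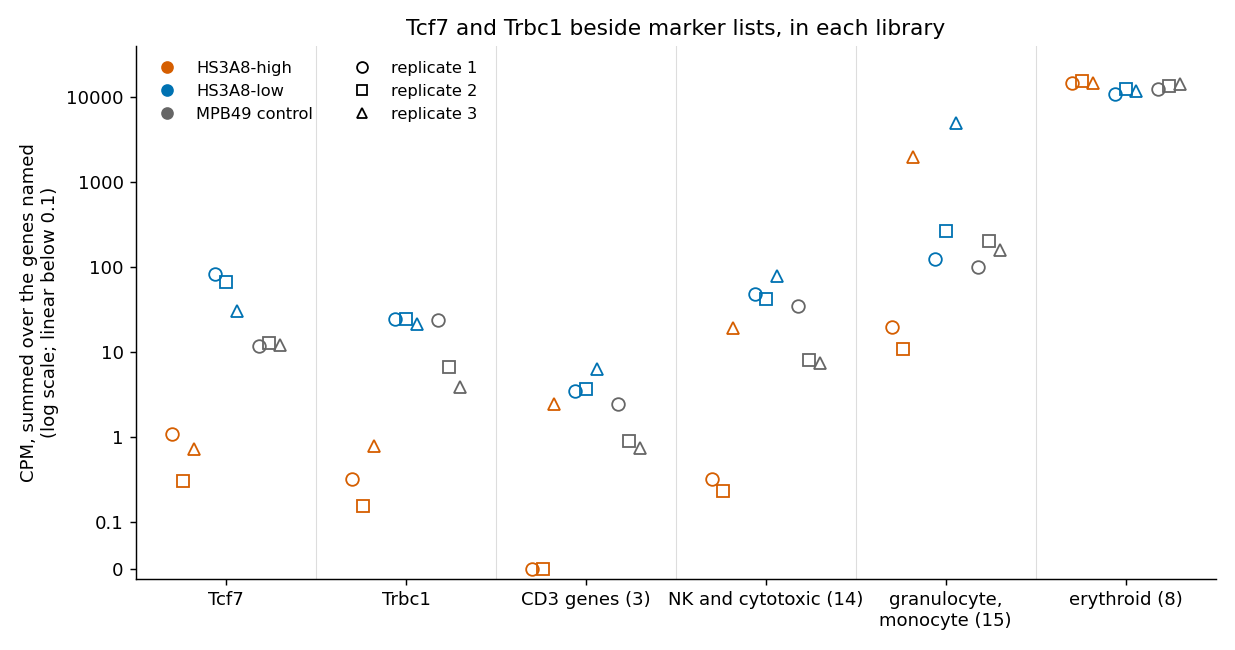
Tcf7 and Trbc1 beside the summed CPM of 4 marker lists in each library, on a log axis that is linear below 0.1 (points, shape by replicate number; number of genes summed in parentheses). Replicate 3 of both HS3A8 fractions stands out for granulocyte and monocyte genes (1965 and 4994 CPM) and is the highest of its fraction for the CD3 genes (2.45 and 6.34 CPM), but not for Tcf7.

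Genes most like Tcf7 and Trbc1 over the 9 libraries were sought among 9326 other genes (mean over the libraries of 5 CPM or more), as a description, since the points share 3 groups. With Tcf7, Pearson's r of log2 CPM was highest for Mycn (0.991), Gimap1 (0.989), Sox4 (0.983), Inpp1 and Slc18a2 (both 0.982). Mycn, a transcription factor of the Myc family, held 31.2 ± 8.75 CPM in HS3A8-low, 13.5 ± 2.67 CPM in the control and 1.18 ± 0.494 CPM in HS3A8-high. Sox4, a transcription factor of lymphoid and other progenitors, held 43.3 ± 9.40, 23.3 ± 6.59 and 7.95 ± 1.75 CPM.
With Trbc1, r was highest for 5430427O19Rik, Gmfg (both 0.994), Cd74 (0.992), Dusp2 and Cd9 (both 0.991). Cd74, the invariant chain of antigen presentation, held 123 ± 16.1 CPM in HS3A8-low, 60.0 ± 33.4 CPM in the control and 11.7 ± 6.28 CPM in HS3A8-high. Among the members themselves, r with Tcf7 was 0.969 for Rora, 0.944 for Trbc1, 0.927 for Gata3, 0.914 for Nkg7, 0.879 for Lck and 0.859 for Trbc2. For the CD3 genes it was 0.812 (Cd3g), 0.647 (Cd3e) and 0.605 (Cd3d), on only 0 to 50 counts per library. Trbc2 was closest to Nkg7 (0.974) and Cd3g (0.969).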

How the data were processed

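The authors sequenced low-input libraries, and the table they deposited holds raw, unnormalized read counts of each gene as whole numbers, with a column for every library and none pooled. The submitters' processing notes name STAR 2.5, HTSeq 0.6.1 and mm10. The annotation release, the strand setting and the handling of reads shared by several genes are not given in the sources used here. Identifiers were joined to symbols and to GENCODE M21 on GRCm38 (34490 of 35275 matched), from which sequences and exon lengths were taken.

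Counts were analysed in R 4.3.3 with the quasi-likelihood test of edgeR 4.0.16 (TMM, filterByExpr, Benjamini-Hochberg adjusted p under 0.05 over all genes tested), with the 2 groups compared in each fit, and checked on simulated data. CPM were scaled with TMM over all 9 libraries, with a prior count of 2 in log2 CPM. The members and the 15 lists of 134 genes were chosen with earlier results of these data known. Of the lists for T, NK, innate lymphoid, B, granulocyte and monocyte, basophil and mast, and stem cells, genes called in any comparison, with a mean of at least 1 CPM in any group, or defining and at 0 could be named. Others were named as needed to check the labels. A few genes of the lists and the sequence of the Trbc first exon are not reported here. The genes most like Tcf7 and Trbc1 were the 5 with the highest r each.

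Deviations from the group mean correlated over 11788 genes between same-numbered libraries of the 2 fractions (r = 0.548, 0.386 and 0.578), so the number was taken to pair them. The number did not pair the control with either fraction. The main test left the pairing of the fractions out, and only the replicate block took it into account. Alternatives were DESeq2 1.42.0 (size factors, or its test), other filters on low counts, all 9 libraries in 1 fit, the replicate block and each library left out. Leaving out replicate 3 of both groups, and all summaries of the beta locus, were chosen after seeing the data. With 3 libraries a group, p-values cover the spread between libraries only, and counting intervals and floors cover counting error only.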

Additional observations from a re-analysis of the deposited data

How the results depend on the processing

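Between HS3A8-high and HS3A8-low, 451 genes and 6 of the other T-lineage genes were called. The DESeq2 test gave 1224 and 12, the replicate block 1367 and 10, and leaving out replicate 3 of both fractions 748 and 14. Leaving out 1 library gave 0 to 439 genes and 0 to 9 of the list. The library left out was HS3A8-low replicate 2 for 0 and 0, HS3A8-low replicate 1 for 56 and 2, HS3A8-low replicate 3 for 244 and 2, HS3A8-high replicate 1 for 42 and 1, HS3A8-high replicate 2 for 53 and 2, and HS3A8-high replicate 3 for 439 and 9.

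For HS3A8-low and the control, edgeR called 0 genes under every alternative, and the DESeq2 test called 93, with 1 on the list. For HS3A8-high and the control, 2 genes were called. DESeq2 called 143, with 4 on the list, no count filter gave 9, all 9 libraries in 1 fit 32, with 1 on the list, and the replicate block and leaving out replicate 3 of both groups 0 each. Leaving out 1 library gave 0 to 5. The control numbers do not pair with the fractions (r from -0.344 to 0.0214). Between the fractions the block also called Cd34, Fcgr3 and Fcgr2b of the MEP gate list and Itgam of the lineage cocktail list, beside the list genes it added in the report, and it changed no other call of a listed gene. The causes of these changes were not tested.

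Of 324 refitted log2 fold changes of the members, none changed sign and 27 moved by more than the spread between replicates. CD3 counts of 0 to 50 per library limit any statement on the CD3 genes.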
